A study of Mus musculus and synthetic construct with 21 samples.

Results

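Of the 3243 designed reporter elements in the seventh pool of the study, 1081 lay in the surroundings of a mouse chromosome 15 locus and are described here. They were chosen by the locus in their names: 1080 carried an array of transcription factor motifs, and 1 was the locus without an array, called the single element below. Another 1081 elements each were built on a chromosome 13 and a chromosome 9 locus. Each array name held 2 motif names out of 15, a code of 2, 4 or 6, read here as the number of motif copies, and a code of 1, 2 or 3, called the arrangement. The labels do not say what the arrangements are. All 120 combinations of the 15 names were present, 15 of the same name and 105 mixed, each as 9 arrays. The elements were assayed in 3T3-L1 cells, a mouse pre-adipocyte line, by a massively parallel reporter assay (MPRA), in which each element drives a transcript that carries barcodes of 16 bases. Per the labels, confluent cells were induced to differentiate by a medium holding 1.7 µM insulin, 1 µM of the glucocorticoid dexamethasone and 0.5 mM of the phosphodiesterase inhibitor IBMX, and per the series' design text RNA was taken 16 h after transfection. There was 1 RNA library and 1 plasmid library, both common to the 3 backgrounds, with no other genotype or treatment group. The labels name no replicate, so no difference below has a replicate check and no p-value is given. The tables hold no endogenous transcripts, and the identity of the cells was not examined.

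PPARγ, a ligand-activated receptor required for the making of fat cells, pairs with RXR on DNA at a direct repeat of a hexamer spaced by 1 base, the DR1. Enhancers usually hold sites for several factors, and an array of repeated sites asks how much activity a given motif adds when its surroundings are held constant. AP-1, the dimers of FOS and JUN proteins, acts early in the response of pre-adipocytes to the differentiation cocktail, and C/EBP proteins act beside PPARγ in the adipocyte programme.

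The 16 bases named for each locus are shown because they are the PPARγ site that the arrays of a background have in common in their names. Capitals mark the pair of hexamers that came closest to a repeat of AGGTCA with 1 base between, on the strand given. No genome of this build was used, so the loci were not assigned to genes or exons.
Chromosome 15 locus: agtAGGACAgGGGTTA
Chromosome 13 locus: tgaAGGTCAgAGTTTA
Chromosome 9 locus: agtGGGGCAgAGGGCA
In mm9 the chromosome 15 site spans chr15:67824069-67824084 on the minus strand, with 3 mismatches to the repeat, 1 in the leading hexamer and 2 in the other. The chromosome 13 site spans chr13:46069371-46069386 on the plus strand, with 2 mismatches, and the chromosome 9 site spans chr9:66727486-66727501 on the plus strand, with 3. The sequences of the arrays are not used here, so motifs are known below by name only.

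The chromosome 15 elements were sequenced less deeply than the others, and this touches every value below. The pool held 9806531 RNA and 10179019 plasmid counts in total. Chromosome 15 elements took 43.0% of the barcodes linked to the pool, but 17.3% of its plasmid counts and 21.0% of its RNA counts. A chromosome 15 array had a median of 981.5 plasmid counts (range 7 to 11834) and 4.68 plasmid counts per barcode, against 3855.5 and 32.2 for chromosome 13 and 3993.5 and 28.6 for chromosome 9. Of the 1080 arrays, 1058 had at least 50 plasmid counts. Among these 117 had 0 RNA counts, or 11.1%, against 19 of 1079 and 21 of 1079 arrays in the chromosome 13 and 9 backgrounds. The remaining 941 arrays had an activity, the log2 of RNA over plasmid counts with each divided by its library total, and the differences from the single element below are log2 differences of this value.

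Most arrays were more active than the bare chromosome 15 locus. The single element had 1194 RNA and 7444 plasmid counts, an activity of -2.59 (95% exact binomial interval -2.68 to -2.50). This interval, like the other intervals of activity below, covers only counting error and treats reads as independent. Reads without molecular identifiers are not independent molecules, so the interval understates that error. The arrays stood above it by a median of 1.58 (interquartile range -0.15 to 2.84, n = 941). Of these, 691 were above the single element, 575 by at least 2-fold and 216 by at least 8-fold. Among measured arrays the share at least 2-fold above was 61.1%, against 41.3% over all 3 backgrounds, 25.6% for chromosome 13 and 39.5% for chromosome 9. At least 2-fold below stood 150 arrays, 15.9%, against 12.6% over all 3 backgrounds, 13.7% and 8.51%. These shares leave out arrays without RNA, which were more frequent in chromosome 15. With such arrays kept in the total, the share above was 54.3%, against 25.1% for chromosome 13 and 38.7% for chromosome 9. The 117 arrays without RNA have no measured difference. If all of them were counted as below, the number would be 267 of 1058. For 531 arrays the whole of this read-based interval lay at least 2-fold above that of the single element, and for 119 at least 2-fold below.

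These shares depend on the level of the single element and on the spread of the arrays. The activity of the chromosome 15 single element was lower than that of the chromosome 13 single element, -0.97 with 21377 RNA and 43479 plasmid counts, and that of the chromosome 9 single element, -1.28 with 19901 and 50127. The arrays did not share that order to the same extent. Their median activity was -1.003 in the chromosome 15 background, -0.71 in chromosome 13 and -0.56 in chromosome 9. Against the median array instead of the single element, 281 chromosome 15 arrays were at least 2-fold above and 318 at least 2-fold below.

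The motif named ppar ranked highest in this background, and the 4 names grouped here as AP-1 (bach1, fra1, jun and fos) followed. Each name occurs in 135 arrays, and the median difference from the single element was 2.89 for ppar (124 arrays with an activity), 2.65 for bach1 (126), 2.49 for fra1 (130), 2.22 for jun (124) and 1.89 for fos (124). FRA1, JUN and FOS are AP-1 subunits, and BACH1 is a bZIP factor known as a repressor that binds an extended AP-1 site. At least 2-fold above the single element stood 98 arrays with ppar (79.0%), 97 with bach1 (77.0%) and 95 with fra1 (73.1%). For jun it was 83 (66.9%) and for fos 81 (65.3%), against 61.1% of all measured chromosome 15 arrays. The last 2 shares lie close to that background. The place of fos depended on the processing: it ranked 7, behind atf3 and vbp, with a pseudocount of 1 or with arrays without RNA placed lowest, and 6, behind lxr, with a plasmid minimum of 200.

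The middle of the ranking was flat. The name lxr, for the oxysterol receptor that also pairs with RXR, had a median difference of 1.80, and atf3, for a stress-induced bZIP factor, had 1.76. The E-box factor name myc followed with 1.74, the PAR bZIP name vbp with 1.73 and e4bp4, for the bZIP repressor also called NFIL3, with 1.37. Between lxr and vbp the medians differed by no more than 0.04 from one name to the next. For lxr 28, 23 and 45 arrays were measured at 2, 4 and 6 copies, with medians of 1.11, 1.00 and 2.61. The lxr median is thus weighted to 6 copies, and lxr ranked 8 with arrays without RNA placed lowest. The lower end held the forkhead names foxo4 (0.86) and foxd1 (0.76), myb (0.73), ap2 (0.34) and cebp (0.24). Medians of all 15 names were above the single element, but those of myb, ap2 and cebp changed sign with the treatment of arrays without RNA. With arrays at 0 RNA placed below all others, ap2 stood at -0.46, cebp at -0.30 and myb at -0.29.

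Neighbours in the ranking were 0.01 to 0.51 apart, and whether they differ was not tested. The arrays of a name were widely spread, with an interquartile range from 2.21 for foxo4 to 3.33 for fos. The ends differed by 2.66, from ppar to cebp. Arrays of 2 names count under both, so the names share arrays. The plasmid depth of the names also differed, with medians of 459 for myb, 650 for ap2, 807 for cebp and 1344 for ppar, and its part in the ranking was not tested. With at least 1000 plasmid counts required, ppar and bach1 were again the highest, lxr moved from rank 6 to 4, fra1 from 3 to 5 and fos from 5 to 6. At the lower end cebp moved from rank 15 to 12, and ap2, at rank 14 before, was the lowest.

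Arrays of a single motif name had the same 5 names at the top and 4 of the same 5 at the bottom, with a wider span of 6.13. The 9 ppar arrays had 7 of 8 measured arrays at least 2-fold above the single element, with a median difference of 3.05. At 6 copies their RNA and plasmid counts were 21241 and 8446, 39102 and 10348, and 15955 and 6356 in arrangements 1, 2 and 3, differences of 3.97, 4.56 and 3.97. At 4 copies the differences were 0.93 and 3.18 in arrangements 1 and 3, while arrangement 2 had 0 RNA counts and 299 plasmid counts, which a limit of 3 RNA counts places at -4.00 or lower. At 2 copies they were 1.23, 2.92 and 2.51. The 6-copy arrays thus stood above all the other measured arrays of the set. The array without RNA has no measured difference, and that limit treats reads as independent. Of chromosome 15 arrays with 250 to under 500 plasmid counts, 30.3% had no RNA. In the other backgrounds that same 4-copy array had 6176 RNA counts (chromosome 13) and 15983 (chromosome 9).

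Arrays of fra1 alone had the highest median, 3.58, over 9 arrays with differences from -1.99 to 5.12. The 2-copy arrays were the lowest: -1.99, -0.04 and 2.27 at 2 copies, 2.64, 4.41 and 3.58 at 4, and 5.10, 4.39 and 5.12 at 6, for arrangements 1, 2 and 3. The values at 2 copies did not overlap those at 4 or 6, while those at 4 and 6 overlapped. All 9 arrays of bach1 stood at least 2-fold above the single element, with a median of 3.04. They showed no such order, with 1.57, 4.06 and 3.21 at 2 copies, 1.46, 5.15 and 3.04 at 4, and 4.48, 2.81 and 2.20 at 6. The 4-copy bach1 array of arrangement 2 had 4976 RNA over 873 plasmid counts, the highest of the set. Arrays of jun and of fos alone had medians of 2.98 (7 of 9 above the single element) and 2.80 (9 of 9).

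The 3 lowest names gave several arrays with little or no RNA. Of the 9 cebp arrays 2 had 0 RNA, and the other 7 had a median difference of -2.56 and a range of -4.57 to 4.02. The highest of them, 6 copies in arrangement 3, had 815 RNA over 313 plasmid counts, and it stood apart from the same motif and copies in arrangement 2, with 32 over 1174. Of the 9 ap2 arrays 4 had 0 RNA and 4 of the other 5 stood at least 2-fold below the single element. The exception had 908 RNA over 995 plasmid counts, at 2 copies in arrangement 3, a difference of 2.51. Of the 9 myb arrays 2 had 0 RNA, both at 6 copies, and the others ran from -5.19 to 3.53 with a median of -0.00018. The lowest rested on 1 RNA count among 228 plasmid counts (interval of the activity -13.1 to -5.29). The 9 myb arrays were shallow, with 106 to 797 plasmid counts.

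Activity was higher with more copies of the motifs. The median difference from the single element was 0.65 for arrays of 2 copies (n = 306), 1.58 for 4 (n = 293) and 2.55 for 6 (n = 342). At least 2-fold above stood 44.1%, 59.4% and 77.8% of them. Arrays without RNA are left out of these values and of the matched differences that follow. They numbered 50 of 356, 49 of 342 and 18 of 360 at 2, 4 and 6 copies. Between arrays of the same motifs and arrangement, 6 copies exceeded 2 by a median of 1.82 (interquartile range 0.13 to 3.39, n = 290), and 225 of the 290 were higher. Of these matched differences 181 were at least 2-fold higher, 62.4%, against 54.9% over all 3 backgrounds, and 43 at least 2-fold lower, 14.8%, against 11%. From 2 to 4 copies the median was 0.60 (n = 264), with 43.9% at least 2-fold higher against 38.4% over all backgrounds. From 4 to 6 copies it was 1.17 (n = 279), with 52.7% against 39.2%. Plasmid depth also differed by copy number, with medians of 1034.5, 615.5 and 1730.5 counts for 2, 4 and 6 copies, and its part in the difference was not tested. With at least 1000 plasmid counts required of both arrays, 6 copies exceeded 2 by a median of 1.62.

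For 14 of the 15 names the median was highest at 6 copies. For ppar the median difference from the single element was 1.39, 2.48 and 3.75 at 2, 4 and 6 copies, for bach1 1.13, 2.68 and 3.59, for fra1 0.89, 2.69 and 3.46, and for jun 0.31, 2.22 and 3.14. For fos it was 0.61, 1.28 and 3.49, the third highest median at 6 copies. The names vbp (0.64, 1.65 and 2.69) and e4bp4 (0.52, 1.34 and 2.42) also had their highest median at 6 copies. For foxd1 the medians were 0.38, 0.34 and 1.53, and for myb 0.49, 1.37 and 0.87, the 1 name of the 15 whose 6-copy median was below its 4-copy median. Arrays without RNA are left out of these medians, and for myb they numbered 9, 15 and 10. For cebp the medians were -0.25, -0.30 and 1.29, and for ap2 -0.17, -0.45 and 1.23.

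Arrangement 1 differed most from the others at 2 copies. Over all copy numbers the median differences from the single element were 1.58, 1.71 and 1.48 for arrangements 1, 2 and 3, and arrangement took up 0.325% of the variance among arrays. Matched by motifs and copies, arrangement 3 was below arrangement 2 by a median of -0.50, with 121 of 294 higher, and by a mean of -0.18. At 2 copies, however, arrangement 1 had a median of -0.48 (interquartile range -2.26 to 1.24, n = 85), against 1.03 for arrangement 2 (n = 108) and 0.88 for arrangement 3 (n = 113). The same arrangement left 35 of 120 arrays without RNA, 29.2%, against 8 of 116 and 7 of 120. For the same motifs at 2 copies, arrangement 2 exceeded arrangement 1 by a median of 1.54, with 58 of 79 higher, and arrangement 3 exceeded it by 1.47, with 56 of 80 higher. At least 2-fold higher were 46 of 79, 58.2%, and 49 of 80, 61.3%. Over all copy numbers these shares were 35.1% and 36.9% in the chromosome 15 background, and 22.9% and 22.3% over all 3 backgrounds. At least 2-fold lower at 2 copies were 11.4% and 22.5%, against 21.5% and 32.5% over all copy numbers in chromosome 15. In the chromosome 13 and 9 backgrounds the matched median differences at 2 copies were 0.12 and 0.31 for arrangement 2, and 0.02 and 0.11 for arrangement 3. Whether the backgrounds differ in this was not tested, since each was measured once.

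The low level of the 2-copy arrays of arrangement 1 went with a low plasmid depth. Their median plasmid count was 614.5, against 1537 and 1222.5 in arrangements 2 and 3. Among arrays with at least 1000 plasmid counts the medians were -0.71 (n = 24), 1.04 (n = 91) and 0.99 (n = 72). Arrays of that depth were not matched by motifs. Their median plasmid counts, with arrays without RNA included, were 1354, 1754 and 2020.5. The part of plasmid depth in the low level of arrangement 1 was not tested. At 4 and 6 copies the matched differences between arrangements 2 and 1 had medians of 0.13 and -0.15. Those of arrangement 3 minus 1 were 0.07 and -0.30. For arrangement 3 minus 2 the medians were -0.41, -0.78 and -0.47 at 2, 4 and 6 copies.

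Combinations that held ppar or an AP-1 name led the 119 combinations that had at least 5 measured arrays. The combinations were ranked by their median after the values were seen. The highest were ppar with fra1 (median difference 4.11, 8 of 9 arrays at least 2-fold above the single element), atf3 with bach1 (3.77, 9 of 9), bach1 with fra1 (3.64, 8 of 9) and ppar with jun (3.62, 8 of 8, and 1 array without RNA). Of the 10 highest combinations, 10 held ppar or an AP-1 name and 7 held nothing else, against 65 and 15 of all 120. Of the 10 lowest, 0 held either. Those were led from below by cebp alone (-2.56), atf3 with ap2 (-1.39), ap2 alone (-1.36), lxr with myb (-1.27) and foxd1 with myb (-0.90). Medians of 20 combinations were below the single element. Arrays without RNA do not enter these medians, so medians of combinations that hold such arrays are, if anything, too high. The combination left out, atf3 with myb, had 0 RNA in 6 of its 9 arrays.

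Grouped by partner, arrays that joined ppar to an AP-1 name had a median difference of 3.58 (n = 34, 29 at least 2-fold above). Arrays with 2 AP-1 names, or the same one alone, had 3.04 (n = 89, 69 above), and arrays that joined ppar to one of the other 10 names had 2.38 (n = 82, 62 above). An AP-1 name with one of those 10 had 1.91 (n = 328, 219 above), and arrays with neither ppar nor AP-1 had 0.84 (n = 400, 189 above). That share, 47.3%, lies below the 61.1% of all measured chromosome 15 arrays. Arrays without RNA made up 78 of the 478 arrays with neither, and 1 of 90 with AP-1 names only. Arrays of the forkhead names only had a median of 0.29 (n = 24), and those of MYB, MYC and AP-2 names only 0.10 (n = 39, with 15 more without RNA).

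The 10 most active arrays all held an AP-1 name, against 451 of the 941 arrays with an activity. Among arrays with at least 10 RNA counts, the highest was bach1 with jun, 4 copies in arrangement 1, with 13853 RNA over 444 plasmid counts, a difference of 7.60. The same array stood 3.60 above the single element in the chromosome 13 background and 2.53 above it in chromosome 9. Next came bach1 with foxd1, 4 copies in arrangement 3, with 22435 over 1062 counts, a difference of 7.04. That array was below the single element in both other backgrounds, by -0.996 and -2.03. The others of the 10 ran from 5.27 to 6.55: atf3_fra1_4_1, foxo4_fos_6_2, jun_fra1_4_1, bach1_fra1_4_3, jun_fra1_4_2, cebp_bach1_4_2, bach1_fra1_6_1 and ppar_bach1_6_2, each named by its motifs, copies and arrangement. Of the 10, 7 had 4 copies, the copy number with the lowest plasmid depth, and 3 had 6. The deepest of them, ppar with bach1, had 20705 RNA over 3337 plasmid counts and stood 5.27 above the single element here, 2.03 in chromosome 13 and 3.05 in chromosome 9.

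The lowest arrays did not share a motif. With at least 10 RNA counts the lowest was foxo4 with vbp, 2 copies in arrangement 1, with 11 RNA over 2484 plasmid counts, a difference of -5.18 (interval of the activity -8.77 to -6.92). In the other backgrounds it had differences of -0.08 and -0.44. The next were jun_myb_2_2 (12 over 1379, -4.20) and ap2_myc_6_2 (12 over 1378, -4.20). The other 7, from -3.51 to -3.05, were cebp_foxd1_6_1, atf3_foxd1_4_3, ap2_foxd1_4_3, cebp_fra1_4_1, ppar_fos_2_3, foxo4_vbp_6_2 and bach1_e4bp4_2_1. Of the 10, 4 held an AP-1 name and 1 held ppar, against 486 and 135 of all 1080 arrays. The 9 arrays of ppar with fos ran from -3.11 to 5.07.

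Arrays without RNA were treated apart. The 117 arrays had between 52 and 1179 plasmid counts, with a median of 305. A limit of 3 RNA counts, which treats reads as independent, had a median difference from the single element of -4.03. It lay at least 2-fold below the single element for all 117 arrays, but the plasmid minimum alone ensures this. The limit varies only with the plasmid count, so it does not show how active these arrays were. The deepest were atf3_myb_2_2 (1179 plasmid counts, limit -5.98), ap2_fos_2_1 (1135, -5.92), lxr_cebp_2_3 (977, -5.71), foxd1_myb_2_3 (974, -5.70), cebp_myc_6_1 (959, -5.68) and jun_fra1_2_1 (937, -5.65). By name, the highest shares of such arrays were 25.6% for myb (34 of 133), 18.9% for myc, 18.8% for ap2 and 15.8% for cebp and for lxr. The lowest were 2.99% for fra1 (4 of 134), 4.55% for foxo4 and 5.26% for bach1. Median plasmid counts of the same arrays were 460 for myb, 959.5 for myc, 708 for ap2, 812 for cebp, 1099.5 for lxr, 1182.5 for fra1, 2191 for foxo4 and 901 for bach1. The part of plasmid depth in these shares was not tested. Of the 117 arrays, 3 also had no RNA in the chromosome 13 background and 8 in chromosome 9, where 19 and 21 of 1079 arrays had none in all. RNA was present in both other backgrounds for 105 of them. Their median differences from the single element there were -0.11 (chromosome 13) and 0.22 (chromosome 9).

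Absence of RNA went with low plasmid depth in every background. Among chromosome 15 arrays with at least 50 and under 250 plasmid counts 59.7% had no RNA, against 30.3% from 250 to under 500, 7.80% from 500 to under 1000, 0.794% from 1000 to under 2000 and none of the 282 arrays with 2000 or more. In the chromosome 13 background the shares in the same classes were 62.5% of 16 arrays, 29.2% of 24 and 8.70% of 23, with none among the 61 and 955 arrays of the deeper classes. In the chromosome 9 background they were 61.5% of 13 arrays, 61.1% of 18 and 5.56% of 36, with none among the 84 and 928 deeper ones. The part of plasmid depth in the excess of chromosome 15 arrays without RNA was not tested.

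Over all measured arrays, the range of activity was wider in the chromosome 15 background than in the others. The SD among arrays was 2.44, against 1.29 and 1.41 in the chromosome 13 and 9 backgrounds, and the distance from the 10th to the 90th percentile was 6.17, against 3.04 and 3.16. An additive model of motif names, copies and arrangement left 72.4% of the variance unaccounted for among chromosome 15 arrays, against 64.2% and 62.1% in the other backgrounds. Arrays that differed only in arrangement had an SD of 1.97 around their mean, against 0.95 and 1.01. The counting interval of a chromosome 15 array had a median full width of 0.29, but it treats reads as independent and understates counting error. The part of measurement error in the spread was not tested. With at least 1000 plasmid counts required, the SD of arrangements was 1.35, against 0.83 and 0.83 in the other backgrounds, and the SD among arrays was 1.94, against 1.17 and 1.28. Median plasmid counts still differed there, 2139.5 against 3948.5 and 4097. From 500 to under 1000 counts the SD among arrays was 2.79, against 2.53 (n = 21) and 2.83 (n = 34). From 1000 to under 2000 it was 2.09, against 1.73 and 2.01, and with 2000 or more it was 1.68, against 1.10 and 1.17. The part of plasmid depth in the wider range was not tested.

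The median activity of the motif names correlated with that in the other backgrounds, more closely over all arrays of a name than over its 1-motif arrays or from array to array. Over the 15 names, the median activities of chromosome 15 correlated with those of chromosome 13 with r = 0.89 and rho = 0.94, and with those of chromosome 9 with r = 0.94 and rho = 0.92. Chromosomes 13 and 9 gave r = 0.95 and rho = 0.93. Over the medians of 1-motif arrays the values were lower with chromosome 15: r = 0.74 and rho = 0.79 with chromosome 13, r = 0.74 and rho = 0.76 with chromosome 9, and r = 0.95 and rho = 0.89 between the other backgrounds. The name ppar ranked highest in all 3, while the lowest was cebp in chromosome 15 and myb in the others. The span from the highest to the lowest name was 2.66 in chromosome 15, 1.49 in chromosome 13 and 1.51 in chromosome 9. Across the 911 arrays measured in all 3 backgrounds, rho was 0.47 with chromosome 13 and 0.49 with chromosome 9, against 0.59 between the other 2. With at least 1000 plasmid counts in each these were 0.59, 0.60 and 0.65 (n = 492). These correlations are descriptions, since the backgrounds share both libraries and the points share motif names.

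For the same array, the difference from the own single element was larger in the chromosome 15 background by a median of 1.27 than in chromosome 13 (interquartile range -0.21 to 2.30, larger for 655 of 911). Against chromosome 9 it was larger by 0.76 (604 of 911). The activity itself was lower in chromosome 15, by a median of -0.34 against chromosome 13 and -0.55 against chromosome 9. The activity of the chromosome 15 single element was lower still, by -1.62 and -1.31, and the larger differences are the distance between these values.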

How the data were processed

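The pool 7 table gives, for each element, RNA and plasmid counts that the authors summed over all barcodes of the element, per the series' design text. The deposited counts are not normalized. The build is mm9 and Bowtie2 2.1.0 is listed for the library that links barcodes to elements, per the submitters' processing notes. The barcode counting tool is not given in the sources used here. Barcodes in the deposited map matched the table for 3243 of 3243 elements, and 0 were assigned to more than 1 element.

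Activity was the log2 of the RNA over the plasmid count, each divided by its library total, without a pseudocount, for elements with at least 50 plasmid counts. Arrays with 0 RNA counts were kept apart. With 1 RNA and 1 plasmid library no test was made. Exact 95% Clopper-Pearson intervals, which treat reads as independent, are given with a 2-fold boundary and the spread over arrays. The members and lists were chosen with earlier results of these data known. Named were the single elements, all motifs, the 1-motif arrays of ppar and of the 3 highest and 3 lowest motifs, the 10 highest and 10 lowest arrays with at least 10 RNA counts, the 6 deepest arrays without RNA, and the 5 arrays at each end of the contrast between backgrounds. The script was tested on simulated data. Alternatives changed the minimum, pseudocount, reference, averaging and scaling. Python 3.11.15, pandas 2.3.3, numpy 2.4.6 and SciPy 1.17.1 were used.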

Additional observations from a re-analysis of the deposited data

How the results depend on the processing

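No paired analysis was possible because each pool had 1 RNA and 1 plasmid library. Of the recomputed main values, 88 stayed close, 17 moved further and 2 changed sign. Close means within an interval for the median over arrays, or within 1.5 times. That interval treats the designed arrays as independent. Arrays are not replicates, so the interval is not a replicate error, and these counts only describe how far the values moved. A plasmid minimum of 1000, chosen after seeing the data, gave a median difference of 1.84, with 371 arrays at least 2-fold above, 42 below, 2 without RNA and arrangement 3 minus 1 at -0.13. That last difference was also -0.0027 at a minimum of 200, against 0.06 at 50. A pseudocount of 1, which keeps arrays without RNA, gave a median difference of 1.28, 267 arrays below, and contrasts of 1.07 and 0.59 with chromosomes 13 and 9. A pseudocount of 5 gave 1.28 and 257 arrays below. An RNA minimum of 10 left 90 below. Against the median array 281 were above and 318 below. With the median log2 ratio of the pool set to 0 the median activity was -0.30. As a mean, arrangement 3 minus 2 was -0.18. The span from the highest to the lowest motif was 4.66 in an additive model and 6.13 over 1-motif arrays. Both refer to arrays of 1 name alone, in the model as a fitted value. They are thus another quantity than the medians over all arrays that hold a name. Motifs whose difference changed sign were ap2 (-0.45), cebp (-0.28) and myb (-0.29) with the pseudocount of 1. With 0 RNA placed lowest, added after seeing the data, they were -0.46, -0.30 and -0.29. In the additive model ap2 (-1.22), cebp (-1.15), foxd1 (-0.10), foxo4 (-0.20) and myb (-0.39) did so, and over 1-motif arrays ap2 (-1.36), cebp (-2.56), myb (-0.00018) and myc (-0.21). The cause was not tested, except that the pseudocount and the last ranking add arrays without RNA. The name ppar ranked highest in 9 of 10 alternatives and second to fra1 over 1-motif arrays. Of the 5 highest names 4 were shared with the main ranking at minimums of 200 and 1000, with the pseudocount of 1 and with 0 RNA placed lowest. Without replicate libraries, the spread between transfections is unknown.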

Other observations

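The arrays under the minimum of 50 plasmid counts were concentrated in 1 motif name. Of the 22 such arrays in the chromosome 15 background, 21 held lxr, and 18 had 4 copies and 4 had 2. They had 7 to 48 plasmid counts on 24 to 133 barcodes, and 19 had 0 RNA counts. The medians for lxr at 2 and 4 copies, 1.11 and 1.00, therefore rest on 28 and 23 arrays, against 45 at 6 copies.

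Mixed arrays were set beside the pair of 1-motif arrays with the same copies and arrangement. In the chromosome 15 background 192 of 674 mixed arrays were more active than both (28.5%), 321 lay between them and 161 lay below both. In chromosome 13 it was 203 of 872 above both (23.3%), and in chromosome 9 it was 232 of 835 (27.8%). A 1-motif array served in many such comparisons. A comparison needs an activity for the mixed array and for both 1-motif arrays. Those with an array without RNA or under the plasmid minimum are therefore left out, which left fewer in chromosome 15 than in the other backgrounds.

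The arrays farthest above their mean activity in the other backgrounds were bach1_foxd1_4_3 (by 7.09), bach1_myc_2_2 (4.85), atf3_fra1_4_1 (4.47), cebp_bach1_4_2 (4.06) and cebp_cebp_6_3 (3.84). Of these, bach1_myc_2_2 had 2361 RNA over 1575 plasmid counts here, against 24 over 285 in chromosome 13 and 49 over 1526 in chromosome 9. At the other end, ap2_fra1_4_3 (-8.64), atf3_ap2_6_1 (-8.60), bach1_myc_4_2 (-8.57), foxo4_fos_4_3 (-8.45) and atf3_foxd1_2_2 (-8.35) each had 1 RNA count here, over 376 to 962 plasmid counts. In the other backgrounds each had at least 789 RNA counts.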
